A study of Sus scrofa with 16 samples.

Results

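The livers of 5 pigs fed rapeseed oil (group R) were compared with those of 5 pigs fed beef tallow (group B), which are 10 of the 16 liver libraries of the series. The libraries were chosen by the diet in their titles, group R was the reference, and the remaining pigs, on another fat, were not used here. The study asked how the source of fat in the feed changes the liver transcriptome of fattening pigs. All pigs were crosses, with Duroc x Pietrain boars on Polish Landrace x Polish Large White sows, and were fattened from about 60 to 118 kg of body weight on diets alike in energy and protein. Group R held 3 females and 2 males, and group B held 2 females and 3 males. The authors describe the pigs as gilts and barrows, so the males were castrated. The pigs were housed singly, 1 library was made per pig from the 3′ ends of liver mRNA, and whole liver was used, so no cell type was isolated. The study kept the diets different in the kind of fat only, with no group fed without added fat, so a difference can be read as higher with one fat or as lower with the other. In bulk liver, fewer cells of a type and less RNA per cell cannot be told apart.

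Rapeseed oil is rich in unsaturated fatty acids, and beef tallow holds more palmitic and stearic acid. The liver takes up dietary fat, burns it in mitochondria and peroxisomes, exports it in lipoproteins and turns cholesterol into bile acids. It also breaks down amino acids, nucleotides and foreign compounds and secretes most plasma proteins. Many of these routes are set by the level of a gate enzyme, such as CYP7A1 for bile acids and CPT1A for the entry of fatty acids into mitochondria, whose mRNA answers to hormones, feeding and fatty acids.

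The reads assigned to genes numbered 801172 to 1490944 per library (median 996706). Levels are given as CPM, counts scaled to library size with the TMM factors, and genes at a few CPM rest on few reads. Levels of single pigs are given in the order of pigs 1 to 5, means of levels with their SD over 5 pigs, and fold changes with their standard error. The library of beef tallow pig 3 stood apart. Its log2 levels correlated with those of its own group at 0.847 to 0.864 (Pearson's r across genes, which are not independent), against 0.909 to 0.936 for all other pairs within a diet. Of its reads 33.2% had several alignments, against 19.3% to 22.8% in the other pigs of group B, though group R ran from 21.9% to 32.5%. It lay over 4-fold below the mean of the other 4 pigs of group B in 204 genes and over 4-fold above it in 9. The asialoglycoprotein receptor ASGR1, singled out after its values were seen, was at 0.644 CPM there and at 34.4 to 122 CPM in the other 9 pigs. The log2 fold change without this pig, marked without B3, is therefore given beside each one printed with its standard error, and the adjusted p beside it is that of all 10 pigs.

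Of 6318 genes with enough reads to be tested, 70 (1.11%) passed an adjusted p of 0.05 in the quasi-likelihood test of edgeR, with 41 (0.649%) higher and 29 (0.459%) lower in group B. The log2 fold changes (log2FC), group B minus group R, had a median of 0.01 over all genes tested, and 51.5% of them were above 0. Among the 70 genes the smallest change was 0.69 in size on the log2 scale, the median was 1.23, and 52 changed by at least 1. The pigs of the 2 diets did not overlap in 60 of the 70, and over all genes tested they did not overlap in 160 genes (2.53%) with group B higher and in 126 (1.99%) with group B lower. An unadjusted p under 0.05 was reached by 947 genes (15.0%). The counts of gene lists below are to be read beside these shares over all genes. Single genes said below to rise or fall are those that passed the adjusted p of 0.05. In the plot of change against level, the genes past the threshold spread from low to high levels.

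**Figure D1:**
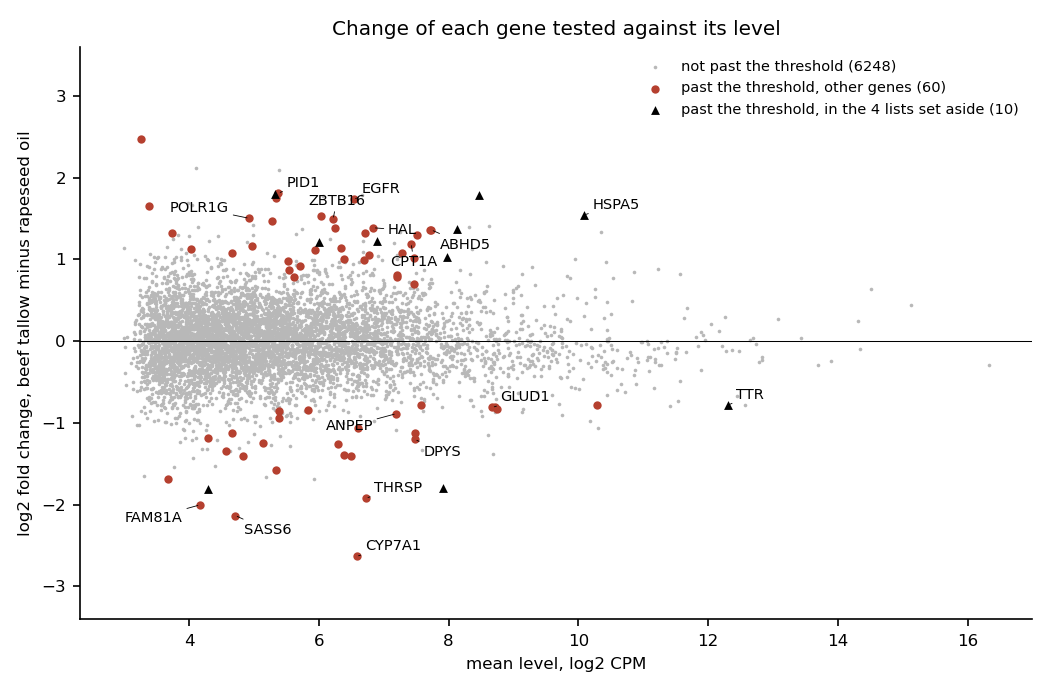
Each point is 1 of 6318 genes, with its mean level (log2 CPM) on the x axis and its log2 fold change, beef tallow minus rapeseed oil, on the y axis. Red points are the 60 genes past an edgeR adjusted p of 0.05 outside cholesterol synthesis, chaperones and acute phase, black triangles the 10 in those lists, with CYP7A1 at -2.63 the lowest named and PID1 at 1.81 the highest named.

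How firmly the count of 70 holds depended on the pigs. With each pig of group R left out in turn, 15, 30, 11, 64 and 9 genes passed, and with each pig of group B left out, 35, 36, 149, 15 and 23 passed. Without beef tallow pig 3 the 149 genes were 2.32% of the 6436 tested, 93 higher and 56 lower, and they included 69 of the 70. Only 9 genes passed in all 10 of these fits, namely EGFR, HSPA5, HSPA8, CYP7A1, POLR1G, FAM81A, DPYS, SASS6 and ENSSSCG00000006719, which has no symbol in the gene table. Of the 70, 51 passed in fewer than 5. The number of these fits in which a gene passed is therefore given below as its count of leave-one-out fits.

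Genes of cholesterol synthesis, chaperones and acute phase were set aside, and 60 of the 70 genes lie outside them, 34 higher and 26 lower, of which 47 have a symbol. All gene lists were drawn up with earlier results of these data known, so their tallies and medians only describe. The 10 set aside were HSPA5, HYOU1, HSPA13, MANF, HSPA8, BAG3 and ZFAND2A, which rose, and FDFT1, MVD and TTR, which fell. The medians of the log2 fold changes were -0.63 for 22 cholesterol synthesis genes, 0.36 for 24 chaperones of the endoplasmic reticulum, 0.36 for 34 other chaperones and 0.00 for 18 acute phase genes. The acute phase list mixes genes known to rise and genes known to fall in that response, so its median cannot show whether the response changed. Of the 18, 9 were above 0 and 9 below. DESeq2, which tested 20 of the list, called 3 higher and 1 lower. Only 21 of the 29 acute phase genes listed were found by symbol. ENSSSCG00000002749 and ENSSSCG00000008998, which the authors name as the listed genes HP and FGA, were not among the 18. Both were higher in every pig of group B than in any of group R (log2FC 0.45 and 0.64, 0.31 and 0.43 without B3). Neither passed the threshold (edgeR adjusted p = 0.245 and 0.141).

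The smallest p of all genes belonged to EGFR (chromosome 9, 139302410 to 139474632), the receptor of epidermal growth factor and related ligands, which takes part in liver growth and regeneration. Its level was 41.2, 51.3, 31.7, 38.4 and 50.2 CPM in pigs 1 to 5 of group R and 148, 155, 105, 142 and 164 CPM in pigs 1 to 5 of group B. The lowest pig of group B, pig 3, was still above the highest of group R by a wide margin (3.33-fold higher on average, log2FC 1.74 ± 0.19, 1.83 without B3, edgeR adjusted p = 0.000789, SE, n = 5 per group, 10 of 10 leave-one-out fits). The standard error (SE) is the size of the log2 fold change divided by the square root of the test's F. Of 25 growth factor and hormone genes tested, EGFR was the only one that rose past the threshold and THRSP the only one that fell past it. The median was -0.11, 12 changes were above 0, and 9 genes had an unadjusted p under 0.05 (15.0% over all genes). DESeq2, which tested 32 of the list, called 3 higher and 2 lower, and edgeR without B3 called 3 higher and 1 lower. The other receptors of the list kept within the threshold, with ERBB3, a partner of EGFR, at -0.46 (edgeR adjusted p = 0.39), ERBB2 at 0.03 (edgeR adjusted p = 0.984) and FGFR4 at -1.32 (edgeR adjusted p = 0.0563).

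Bile acid genes were lower in group B in 10 of 14, and 2 of them fell. CYP7A1 (chromosome 4, 74343101 to 74372628), the rate-limiting enzyme of bile acid synthesis from cholesterol, was at 208, 142, 238, 95 and 139.9 CPM in group R and at 33, 60.4, 11.6, 15.6 and 13.1 CPM in group B. All pigs of group B lay below all of group R, and pigs 3 to 5 of group B were the lowest (6.20-fold lower, log2FC -2.63 ± 0.39, -2.42 without B3, edgeR adjusted p = 0.00677, 10 leave-one-out fits). ABCB11 (chromosome 15, 75402296 to 75487092), the pump that exports bile salts into the canaliculus, was at 652, 602, 492, 371 and 559 CPM in group R and 266, 376, 273, 301 and 319.8 CPM in group B. The groups overlapped between pig 4 of group R and pig 2 of group B (log2FC -0.80 ± 0.18, -0.76 without B3, edgeR adjusted p = 0.0431, 2 leave-one-out fits). Next came the receptor of the intestinal hormone that represses CYP7A1, FGFR4, with 26.2 ± 9.37 CPM in group R and 10.4 ± 3.88 CPM in group B (SD, n = 5), and its co-receptor KLB, at -1.08 (edgeR adjusted p = 0.148), neither past the threshold. The nuclear receptor NR1H4, which senses bile acids, was at 0.11 and its target NR0B2 at 0.57 (edgeR adjusted p = 0.856 and 0.552). The list's median log2FC was -0.18, and -0.25 without beef tallow pig 3.

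Some of the genes that release and burn fat passed the threshold, which 1.11% of all genes tested passed. Whether the other steps were unchanged was not tested. Of 30 genes of fatty acid oxidation and ketogenesis, 1 rose and 1 fell, 14 were above 0, and the median was -0.06. CPT1A (chromosome 2, 4250642 to 4293914), which loads fatty acids on carnitine at the outer mitochondrial membrane, was at 89, 90.6, 52, 165 and 124 CPM in group R and 307, 218, 241, 224 and 206 CPM in group B. No pig of group B was as low as the highest of group R, pig 4 (2.29-fold higher, log2FC 1.20 ± 0.25, 1.19 without B3, edgeR adjusted p = 0.0305, 2 leave-one-out fits). BBOX1 (chromosome 2, 33227965 to 33296013), the last enzyme of carnitine synthesis, was at 50.6, 34.2, 58.4, 57.6 and 47.3 CPM in group R and 20.2, 30.2, 17.4, 26 and 10.9 CPM in group B, again without overlap (log2FC -1.25 ± 0.26, -1.18 without B3, edgeR adjusted p = 0.0305, 3 leave-one-out fits). Further along the route, CPT2 was at 0.48 and HADHA at 0.09 (edgeR adjusted p = 0.562 and 0.902).

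Among 13 genes that respond to the fatty acid receptor PPARA and to fasting, 2 rose, 11 had changes above 0 and 8 had an unadjusted p under 0.05, with a median of 0.42 (0.43 without beef tallow pig 3). ABHD5 (chromosome 13, 27006331 to 27053760), the co-activator of the lipase that opens lipid droplets, was at 109.9, 113, 126, 166 and 81 CPM in group R and 295, 319, 182, 475 and 261 CPM in group B. Pig 4 was the highest of each group, and the groups did not overlap (2.57-fold higher, log2FC 1.36 ± 0.25, 1.5 without B3, edgeR adjusted p = 0.0216, 6 leave-one-out fits). LPIN2 (chromosome 6, 103625725 to 103728151), a phosphatidate phosphatase that makes diacylglycerol, was at 82.5, 166, 88.8, 154 and 94.5 CPM in group R and 292, 190.5, 218, 303 and 178 CPM in group B, also without overlap (log2FC 1.01 ± 0.24, 1.04 without B3, edgeR adjusted p = 0.0495, 3 leave-one-out fits). The droplet coat protein PLIN2 was at 0.99 and PDK4, which spares glucose from oxidation, at 0.42, and neither passed (edgeR adjusted p = 0.268 and 0.295).

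Of 12 genes of lipogenesis and desaturation, 9 were below 0 and 1 fell, with a median of -0.23. That gene was THRSP (chromosome 9, 12479913 to 12484323), a thyroid hormone responsive protein of lipogenic tissue, at 86.8, 151, 159.9, 107 and 331 CPM in group R and 42, 58.3, 23.8, 28.1 and 70.7 CPM in group B. Pig 5 was the highest of each group, and all of group B lay below all of group R (3.78-fold lower, log2FC -1.92 ± 0.36, -1.75 without B3, edgeR adjusted p = 0.026, 6 leave-one-out fits). SCD, which makes monounsaturated fatty acids, had 654 ± 254 CPM in group R and 421 ± 126 CPM in group B, and the groups overlapped (edgeR adjusted p = 0.26). Fatty acid synthase FASN was at -0.43 and the desaturases FADS1 and FADS2 at -0.09 and -0.16 (edgeR adjusted p = 0.619, 0.912 and 0.806). None of 11 genes of lipoprotein assembly passed by edgeR (0 at an unadjusted p under 0.05 and 0 by DESeq2), and their median was -0.06.

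Of 13 genes of urea cycle and ammonia 1 fell, and the median was 0.22. The gene that fell was GLUD1 (chromosome 14, 87968850 to 88005375), which releases ammonia from glutamate, at 537, 533, 497, 481 and 549 CPM in group R and 298, 280.1, 237, 430.2 and 238 CPM in group B. The 5 pigs of group R lay close together, and pig 4 of group B came nearest to them without reaching them (log2FC -0.81 ± 0.18, -0.74 without B3, edgeR adjusted p = 0.0426, 2 leave-one-out fits). CPS1, which feeds ammonia into the urea cycle, was at 208, 266, 256, 268 and 164 CPM in group R and 333, 390.4, 609.5, 346 and 381 CPM in group B. Its groups did not overlap, yet it missed the threshold, with beef tallow pig 3 the highest of all pigs (log2FC 0.83 ± 0.20, 0.64 without B3, edgeR adjusted p = 0.0627, and edgeR adjusted p = 0.0547 without B3). The mitochondrial ornithine carrier SLC25A15 was at 0.97 and arginase ARG1 at 0.77 and did not pass (edgeR adjusted p = 0.0796 and 0.135). DESeq2, which tested 15 of this list, called 2 higher and 2 lower, and edgeR without B3 called 2 higher and 1 lower.

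Of 39 genes of amino acid breakdown, 20 were above 0 and 1 rose, and the median was 0.01. It was HAL (chromosome 5, 87522483 to 87547489), histidine ammonia-lyase, the entry to histidine breakdown, at 112, 68.4, 45.7, 55.6 and 31.8 CPM in group R and 105, 169.7, 206, 147 and 203 CPM in group B. Pig 1 of group R was above pig 1 of group B, the only overlap (2.62-fold higher, log2FC 1.39 ± 0.29, 1.29 without B3, edgeR adjusted p = 0.0305, 3 leave-one-out fits). The later histidine enzymes UROC1, AMDHD1 and FTCD were at -0.16, -0.07 and -0.13 and did not pass (edgeR adjusted p = 0.728, 0.968 and 0.872). HAAO of tryptophan breakdown was at 721 ± 316 CPM in group R and 395 ± 158 CPM in group B (SD, n = 5, edgeR adjusted p = 0.174).

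In pyrimidine breakdown the gene of the middle step passed the threshold. DPYS (chromosome 4, 32791152 to 32879489), dihydropyrimidinase, which opens the reduced pyrimidine ring, was at 266, 217, 272, 275 and 215 CPM in group R and 131, 104, 88.8, 143 and 74 CPM in group B. The highest pig of group B stayed below the lowest of group R (2.30-fold lower, log2FC -1.20 ± 0.20, -1.14 without B3, edgeR adjusted p = 0.01, 10 leave-one-out fits). UPB1, the enzyme that follows it, was at 455, 423, 619, 508 and 384 CPM in group R and 333, 283, 139, 208 and 305 CPM in group B, without overlap but short of the threshold (log2FC -0.91 ± 0.23, -0.76 without B3, edgeR adjusted p = 0.0627). DPYD, the enzyme before it, was at -0.17 (edgeR adjusted p = 0.689). Of the 7 nucleotide breakdown genes tested 6 were below 0, and the median was -0.25.

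Genes of xenobiotic and steroid metabolism were mostly lower in group B, with 23 of 29 below 0 and a median of -0.41 (-0.33 without beef tallow pig 3, -0.45 to -0.33 with each pig left out). Of them 14 had an unadjusted p under 0.05, and 2 fell past the threshold. Only 35 of the 57 genes listed were found by symbol. ENSSSCG00000006719, which the authors name as the listed gene HSD3B1, was not among the 29. It fell past the threshold as well and is described below. ADTRP (chromosome 7, 8242770 to 8313684), a membrane hydrolase of fatty acid esters that androgens induce, was at 84.6, 61.4, 78.7, 61.6 and 79.1 CPM in group R and 39, 43.7, 39.9, 40.6 and 41.3 CPM in group B, where the 5 pigs were nearly alike (log2FC -0.84 ± 0.17, -0.83 without B3, edgeR adjusted p = 0.0305, 3 leave-one-out fits). AKR1E2 (chromosome 10, 65680314 to 65704701), an aldo-keto reductase, was at 36.2, 31.2, 44.4, 28.3 and 32.8 CPM in group R and 23.2, 16.7, 10.3, 15.6 and 13.1 CPM in group B, without overlap (log2FC -1.12 ± 0.25, -0.98 without B3, edgeR adjusted p = 0.0426, 3 leave-one-out fits). Neither is an enzyme of the classic drug pathways, and of those CYP2E1 was at -0.35, CYP1A2 at -0.11 and the xenobiotic receptor NR1I2 at -0.49 (edgeR adjusted p = 0.393, 0.838 and 0.251).

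In antioxidant defense 15 of 21 genes were below 0, the median was -0.19, and 1 gene fell. GCLC (chromosome 7, 27209565 to 27253535), the catalytic subunit of the rate-limiting enzyme of glutathione synthesis, was at 42.7, 23.1, 43.1, 23.2 and 37.6 CPM in group R and 9.75, 11.4, 16.7, 13.5 and 15.2 CPM in group B. All of group B lay below all of group R (2.53-fold lower, log2FC -1.34 ± 0.27, -1.46 without B3, edgeR adjusted p = 0.0285, 3 leave-one-out fits). Its regulatory subunit GCLM was at 0.46 (edgeR adjusted p = 0.409). Catalase, CAT, which removes hydrogen peroxide, was at 6944, 6826, 7424, 6819 and 6134 CPM in group R and 4405, 5662, 2245, 4957 and 4141 CPM in group B, without overlap, and did not pass (log2FC -0.67 ± 0.21, -0.51 without B3, edgeR adjusted p = 0.135). Pig 3 was the lowest of group B in CAT, and without it the change was -0.51 (edgeR adjusted p = 0.0909).

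**Figure D2:**
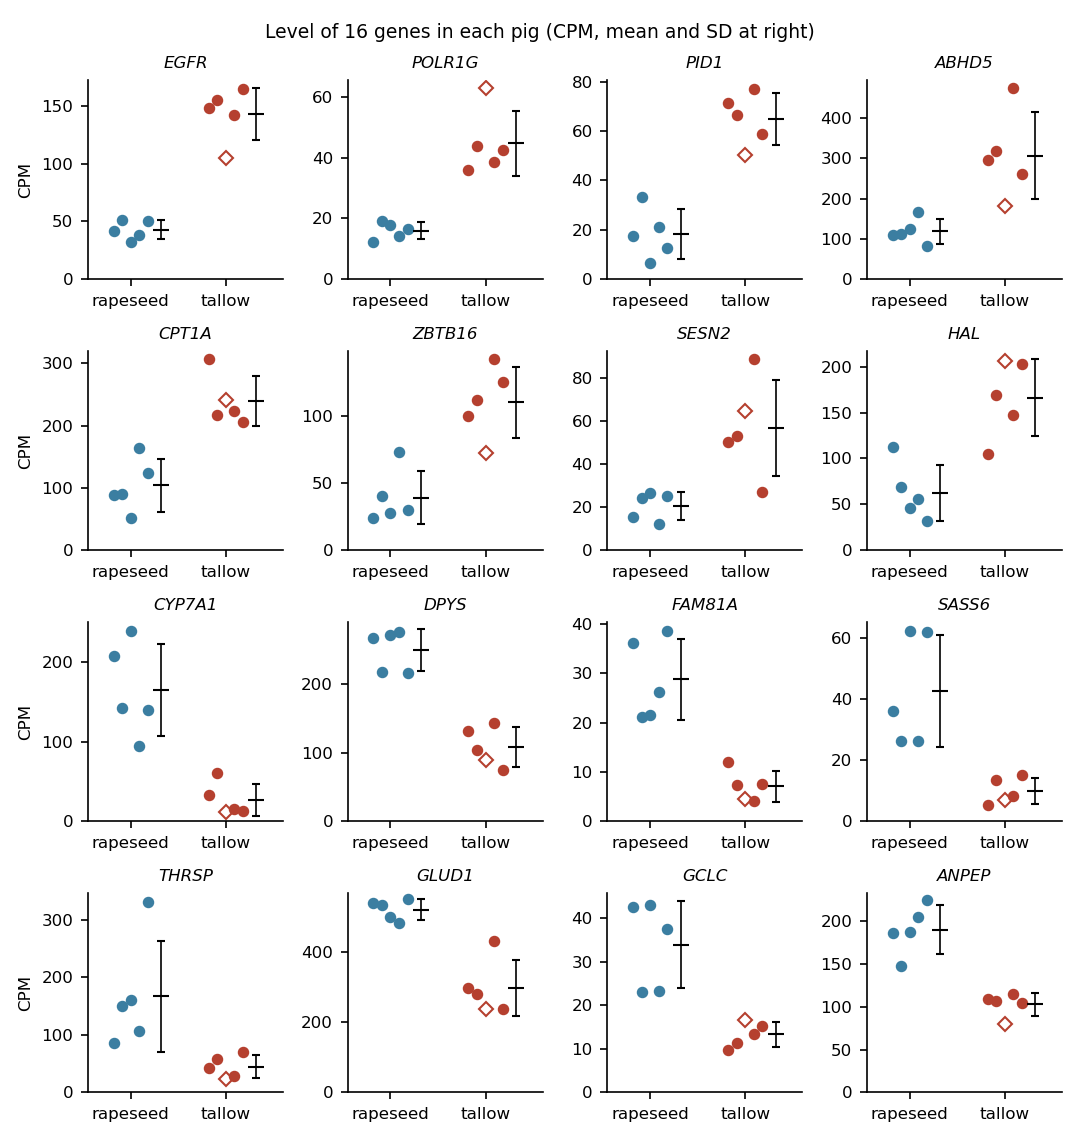
Level (CPM, axis from 0) of 16 genes in each pig, blue for rapeseed oil and red for beef tallow, with the mean and SD of 5 pigs in black at the right of each group. The open diamond is beef tallow pig 3, and the 2 groups share no range in 14 of the 16 genes, the exceptions being ZBTB16 (72.8 CPM in 1 pig of group R and 72.1 CPM in 1 of group B) and HAL.

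Genes of ribosome production were mostly higher in group B. Of 42 nucleolar and ribosome biogenesis genes, 39 had a change above 0 (51.5% over all genes) and 27 an unadjusted p under 0.05 (15.0% over all genes). Of the 42, 6 rose (0.649% over all genes) and none fell (0.459% over all genes). In 14 all pigs of group B lay above all of group R (2.53% over all genes). Their median log2FC was 0.65, against 0.01 over all genes. This list was drawn up with earlier results of these data known, so these figures describe its members and test nothing. Beef tallow pig 3 was the highest of the 10 pigs in 22 of the 42, as the picture of these genes by pig shows. Without it the median was 0.51, with 8 genes past the threshold. With each pig left out, the median ran from 0.51 to 0.70 and the number past the threshold from 1 to 8.

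POLR1G, a subunit of RNA polymerase I, which transcribes ribosomal RNA, was at 12.3, 19.1, 17.8, 14.2 and 16.4 CPM in group R and 36, 43.7, 63.1, 38.5 and 42.4 CPM in group B. Pig 3 was the highest, and the other pigs of group B still lay far above group R (2.84-fold higher, log2FC 1.5 ± 0.23, 1.34 without B3, edgeR adjusted p = 0.00767, 10 leave-one-out fits, and edgeR adjusted p = 0.00696 without pig 3). NOLC1 (chromosome 14, 113154619 to 113166922), a nucleolar phosphoprotein that binds small nucleolar RNPs, was at 31.8, 58.4, 30.4, 35.4 and 36.7 CPM in group R and 96.7, 89.5, 66.3, 96.9 and 69.6 CPM in group B. Here pig 3 was the lowest of group B and pig 2 stood above the rest of group R (log2FC 1.12 ± 0.22, 1.20 without B3, edgeR adjusted p = 0.0271, 4 leave-one-out fits). NOB1 (chromosome 6, 17233863 to 17245451), the endonuclease that trims the small ribosomal RNA, was at 16.6, 10.1, 16.5, 17.2 and 20.3 CPM in group R and 33.7, 40.6, 28.3, 27.1 and 42.4 CPM in group B (log2FC 1.08 ± 0.24, 1.15 without B3, edgeR adjusted p = 0.0426). The RNase P subunit RPP40 rose by 1.12, the nucleolar protein RSL1D1 by 0.92 and YAE1, which helps the recycling factor ABCE1 to mature, by 0.99 on the log2 scale (edgeR adjusted p = 0.0426, 0.0359 and 0.0426). These 4 genes passed in only 1 or 2 of the 10 leave-one-out fits, and the diets did not overlap in any of the 6.

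**Figure D3:**
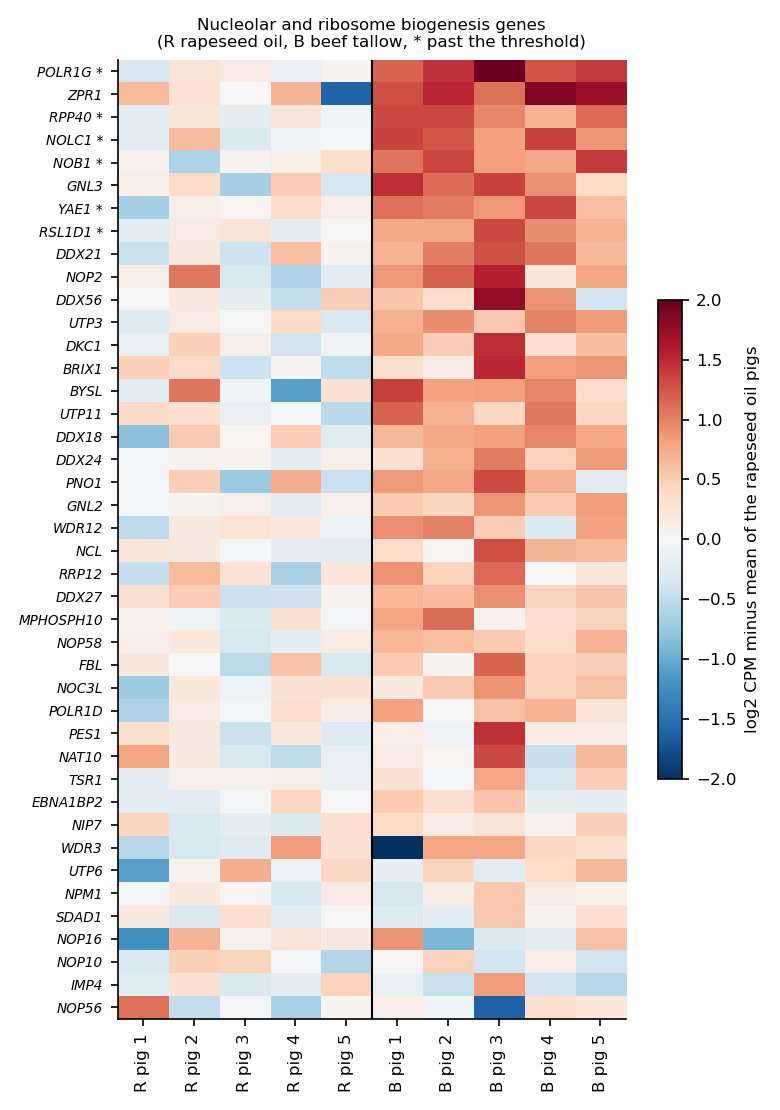
Rows are the 42 nucleolar and ribosome biogenesis genes tested, sorted by log2 fold change, and columns the 10 pigs. Colour is log2 CPM minus the mean of the rapeseed oil pigs, red for higher, and the beef tallow columns are mostly red, most strongly in pig 3, while the 6 starred genes are past the threshold.

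Other genes of protein synthesis mostly did not pass, which holds for all genes too, since 1.11% of those tested passed. None of 41 cytosolic ribosomal protein genes passed by edgeR (0 at an unadjusted p under 0.05, 0 by DESeq2), 30 were below 0, and the median was -0.10. None of 37 translation factors passed by edgeR (8 at an unadjusted p under 0.05, 3 by DESeq2), and their median was 0.11. EIF3A, the largest subunit of the initiation factor eIF3, had 297 ± 38.4 CPM in group R and 449 ± 48.9 CPM in group B (SD, n = 5) without overlap (edgeR adjusted p = 0.0837). EIF5B, which joins the ribosomal subunits, had 273 ± 27.3 CPM in group R and 404 ± 52.1 CPM in group B (edgeR adjusted p = 0.0982). Of 54 splicing and nuclear RNA factors 42 were above 0, with a median of 0.24, and none passed by edgeR (15 at an unadjusted p under 0.05, 8 by DESeq2). Of those, the splicing factor SRSF6 was at 0.77 and FUBP3 at -0.99 (edgeR adjusted p = 0.0563 and 0.0577). Of 15 aminoacyl-tRNA synthetases 1 rose, NARS1, which charges the asparagine tRNA, with 135 ± 21.6 CPM in group R and 219 ± 17 CPM in group B (log2FC 0.69 ± 0.16, 0.69 without B3, edgeR adjusted p = 0.0495, 1 leave-one-out fit). None of 32 proteasome genes passed by edgeR (2 at an unadjusted p under 0.05, 0 by DESeq2), with a median of 0.14.

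Genes listed as the amino acid response had a median of 0.72 over 12 genes, with 11 above 0, 6 at an unadjusted p under 0.05 and 1 past the threshold. What these genes answered to here was not tested. SESN2 (chromosome 6, 85321982 to 85348044), a leucine sensor that restrains the growth kinase mTORC1, was at 15.2, 24.1, 26.6, 12.1 and 25.1 CPM in group R and 50.2, 53.1, 64.4, 88.5 and 27.2 CPM in group B. Pig 5 of group B lay just above group R, and pig 4 was the highest (2.77-fold higher, log2FC 1.47 ± 0.30, 1.42 without B3, edgeR adjusted p = 0.0305, 2 leave-one-out fits). TRIB3, a pseudokinase induced by the factor ATF4, was at 6.51, 9.06, 11.4, 6.06 and 4.82 CPM in group R and 27, 8.33, 27, 13.5 and 44.6 CPM in group B, where pig 2 lay within the range of group R, and it did not pass (log2FC 1.69 ± 0.41, 1.65 without B3, edgeR adjusted p = 0.0599). The transporter genes SLC16A10 and SLC7A2 were at 1.23 and 1.00 (edgeR adjusted p = 0.0818 and 0.123). With each pig left out, the list's median ran from 0.33 to 0.78, the lowest without beef tallow pig 4. By DESeq2, which tested 27 members, 18 were above 0 and 9 below, with a median of 0.56. In the edgeR fit 16 of the 28 members found in the annotation, among them ASNS and ATF3, had too few reads to be tested.

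Glucocorticoid and clock genes had a median of 0.53 over 19 genes, with 12 above 0, 10 at an unadjusted p under 0.05 and 2 that rose. ZBTB16 (chromosome 9, 41639536 to 41839254), a transcriptional repressor that glucocorticoids induce, was at 23.9, 40.2, 27.9, 72.8 and 29.9 CPM in group R and 99.7, 111, 72.1, 142 and 125 CPM in group B. Pig 4 of group R and pig 3 of group B met at nearly the same level, and all others were apart (2.82-fold higher, log2FC 1.49 ± 0.28, 1.62 without B3, edgeR adjusted p = 0.0263, 4 leave-one-out fits). SGK1 (chromosome 1, 29625786 to 29753619), a kinase named for its induction by serum and glucocorticoids, was at 60.8, 39.2, 57.1, 106 and 33.8 CPM in group R and 124, 111, 127, 259 and 124 CPM in group B. Pig 4 was the highest in each group, far above the rest, and the groups did not overlap (log2FC 1.33 ± 0.31, 1.38 without B3, edgeR adjusted p = 0.0492, 2 leave-one-out fits). The other 17 did not pass, 10 of them above 0 and 7 below. Their ends, named after their values were seen, were DUSP1, a phosphatase of MAP kinases, at 1.25 and the arrestin domain protein ARRDC3 at -0.99 (edgeR adjusted p = 0.24 and 0.07). Other members went both ways. FKBP5 and PER1 were at 1.21 and 0.84 (edgeR adjusted p = 0.142 and 0.115). PER2 and HLF were at -0.48 and -0.52 (edgeR adjusted p = 0.502 and 0.149), and the glucocorticoid receptor, NR3C1, at -0.22 (edgeR adjusted p = 0.561). With each pig left out the median ran from 0.30 to 0.83, and blood hormone levels were not among the data used here.

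Of 23 NF-kB and cytokine signalling genes 18 were above 0, the median was 0.35, and 1 rose. Of the 33 genes listed 31 were found by symbol. ENSSSCG00000032381, which the authors name as the listed gene LITAF, was not among the 23. It rose past the threshold as well and is described below. The only gene among the 23 that passed was PID1, which the authors count among inflammation genes. PID1 (chromosome 15, 130080821 to 130215548), an adaptor with a phosphotyrosine-binding domain that is known to dampen insulin signalling, was at 17.4, 33.2, 6.34, 21.2 and 12.5 CPM in group R and 71.2, 66.6, 50.2, 77.1 and 58.7 CPM in group B. The spread within group R was wide, yet its highest pig, pig 2, lay below all of group B (3.51-fold higher, log2FC 1.81 ± 0.30, 1.89 without B3, edgeR adjusted p = 0.01, 9 leave-one-out fits). HAVCR2, an inhibitory immune receptor, had 6.70 ± 6.63 CPM in group R and 27.9 ± 12.5 CPM in group B, with no read in pig 1 of group R, and did not pass (edgeR adjusted p = 0.0788). None of 21 interferon and antigen presentation genes passed by edgeR (1 at an unadjusted p under 0.05, 0 by DESeq2), with a median of -0.04. None of 32 complement and coagulation genes passed by edgeR either (1 at an unadjusted p under 0.05, 1 by DESeq2), with a median of -0.10.

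Of 53 nuclear genes of the respiratory chain only CYCS (chromosome 18, 47169921 to 47172212), cytochrome c, the electron carrier between complexes III and IV, rose, at 81, 124, 72.3, 132 and 87.8 CPM in group R and 234, 204, 277, 180.2 and 154 CPM in group B without overlap (2.12-fold higher, log2FC 1.08 ± 0.21, 0.96 without B3, edgeR adjusted p = 0.0285, 4 leave-one-out fits). The list's median was -0.06, and 30 of the 53 were below 0. None of 19 genes of gluconeogenesis and glycogen passed by edgeR, although 6 had an unadjusted p under 0.05 and DESeq2 called 2. UGP2, which makes the glucose donor of glycogen, with 953 ± 59.2 CPM in group R and 1489 ± 305 CPM in group B, was higher in every pig of group B than in any of group R (edgeR adjusted p = 0.0777). None of 7 polyamine genes passed by edgeR (1 at an unadjusted p under 0.05, 0 by DESeq2), with SMS, spermine synthase, at -0.53.

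Among the genes past the threshold, 19 with a symbol belong to none of the lists. FAM81A (chromosome 1, 112548260 to 112677675), of little known function in liver, was at 36.2, 21.1, 21.6, 26.3 and 38.6 CPM in group R and 12, 7.29, 4.5, 4.17 and 7.62 CPM in group B, so that every pig of group B lay below group R (4.01-fold lower, log2FC -2.0 ± 0.32, -1.84 without B3, edgeR adjusted p = 0.01, 10 leave-one-out fits). SASS6 (chromosome 4, 117985599 to 118049129), a scaffold of new centrioles, was at 36.2, 26.2, 62.2, 26.3 and 61.8 CPM in group R and 5.25, 13.5, 7.08, 8.33 and 15.2 CPM in group B. Group R split into a high pair, pigs 3 and 5, and the remaining 3 pigs, all above group B (4.39-fold lower, log2FC -2.13 ± 0.35, -2.02 without B3, edgeR adjusted p = 0.01, 10 leave-one-out fits). Both were at low levels, so each rests on few reads per pig.

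The next genes belong to none of the lists either. ANK3 (chromosome 14, 63416154 to 63809220), ankyrin-G, which ties membrane proteins to the cytoskeleton, was at 43.4, 47.3, 33, 41.4 and 40.5 CPM in group R and 10.5, 15.6, 10.9, 26 and 16.3 CPM in group B, without overlap (log2FC -1.41 ± 0.26, -1.29 without B3, edgeR adjusted p = 0.0219, 8 leave-one-out fits). ANPEP (chromosome 7, 55351081 to 55373856), aminopeptidase N of the canalicular membrane, was at 186, 147, 186, 204 and 225 CPM in group R and 109, 106, 79.8, 115 and 104 CPM in group B, where pig 3 was the lowest (log2FC -0.89 ± 0.17, -0.81 without B3, edgeR adjusted p = 0.0271, 4 leave-one-out fits). ACBD5 (chromosome 10, 48883116 to 48922377), which holds peroxisomes to the endoplasmic reticulum, was at 150.4, 133, 113, 118 and 141 CPM in group R and 64.5, 66.6, 37.3, 87.5 and 58.7 CPM in group B (log2FC -1.07 ± 0.21, -0.92 without B3, edgeR adjusted p = 0.0271, 3 leave-one-out fits). ACSM3 (chromosome 3, 25247723 to 25284063), a medium-chain acyl-CoA synthetase, had 60 ± 17.3 CPM in group R and 20.6 ± 11 CPM in group B, with pig 2 of group B just above the lowest pig of group R (log2FC -1.57 ± 0.33, -1.35 without B3, edgeR adjusted p = 0.0305, 3 leave-one-out fits). NFIC (chromosome 2, 75193113 to 75262490), a transcription factor of the nuclear factor I family, was the only gene among these that rose, from 79.6, 74.5, 57.1, 78.8 and 56.9 CPM in group R to 129, 105, 129, 147 and 184 CPM in group B, again without overlap (log2FC 0.99 ± 0.19, 1.02 without B3, edgeR adjusted p = 0.0271, 4 leave-one-out fits).

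The remaining 12, named after their values were seen, passed in at most 3 leave-one-out fits each. ZFAND5, MTMR7, MOSPD1, DST, WDR4, CDV3 and DCUN1D4 rose, by 0.78 for DCUN1D4, which promotes neddylation, to 1.66 for WDR4, a subunit of a tRNA methyltransferase, on the log2 scale. ANKS4B, SNTB1, RTN4, UQCC3 and NMRK1 fell, with log2 fold changes from -1.40 for the syntrophin SNTB1 to -0.78 for the reticulon RTN4. NMRK1, nicotinamide riboside kinase, was at -0.93 and UQCC3, an assembly factor of respiratory complex III, at -0.85. CDV3 was at 89.2, 58.3, 212, 81.2 and 106 CPM in group B, and without pig 3, the highest, its change was 0.99 in place of 1.39. WDR4 was under 10 CPM in all pigs of group R, and it passed in none of the leave-one-out fits (edgeR adjusted p = 0.0426 with all pigs).

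The other 13 genes past the threshold, 7 higher and 6 lower, have no symbol in the gene table, and 4 were singled out after their values were seen for having the smallest p in each direction. ENSSSCG00000006719 fell from 168, 121, 120.5, 138 and 109 CPM in group R to 62.2, 62.5, 39.3, 38.5 and 45.7 CPM in group B (log2FC -1.40 ± 0.20, -1.32 without B3, edgeR adjusted p = 0.0052, 10 leave-one-out fits). ENSSSCG00000035706 fell as well, with 244 ± 34 CPM in group R and 112 ± 35.8 CPM in group B (SD, n = 5, log2FC -1.13 ± 0.22, -0.97 without B3, edgeR adjusted p = 0.0271). ENSSSCG00000024742 rose from 5.79, 1.01, 1.27, 3.03 and 1.93 CPM to 13.5, 14.6, 12.2, 31.2 and 10.9 CPM, the largest rise among the genes past the threshold, at a very low level (log2FC 2.48 ± 0.46, 2.57 without B3, edgeR adjusted p = 0.0232). ENSSSCG00000032381 rose from 108, 178, 74.9, 168 and 56.9 CPM to 317, 249.9, 294, 344 and 297 CPM, with all pigs of group B above the widely spread group R (log2FC 1.35 ± 0.27, 1.36 without B3, edgeR adjusted p = 0.0271). Of the 5 most abundant genes, which include ALB, TF and FGB, none passed, with ALB at -0.29 and -0.07 without beef tallow pig 3, where it was lowest.

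**Figure D4:**
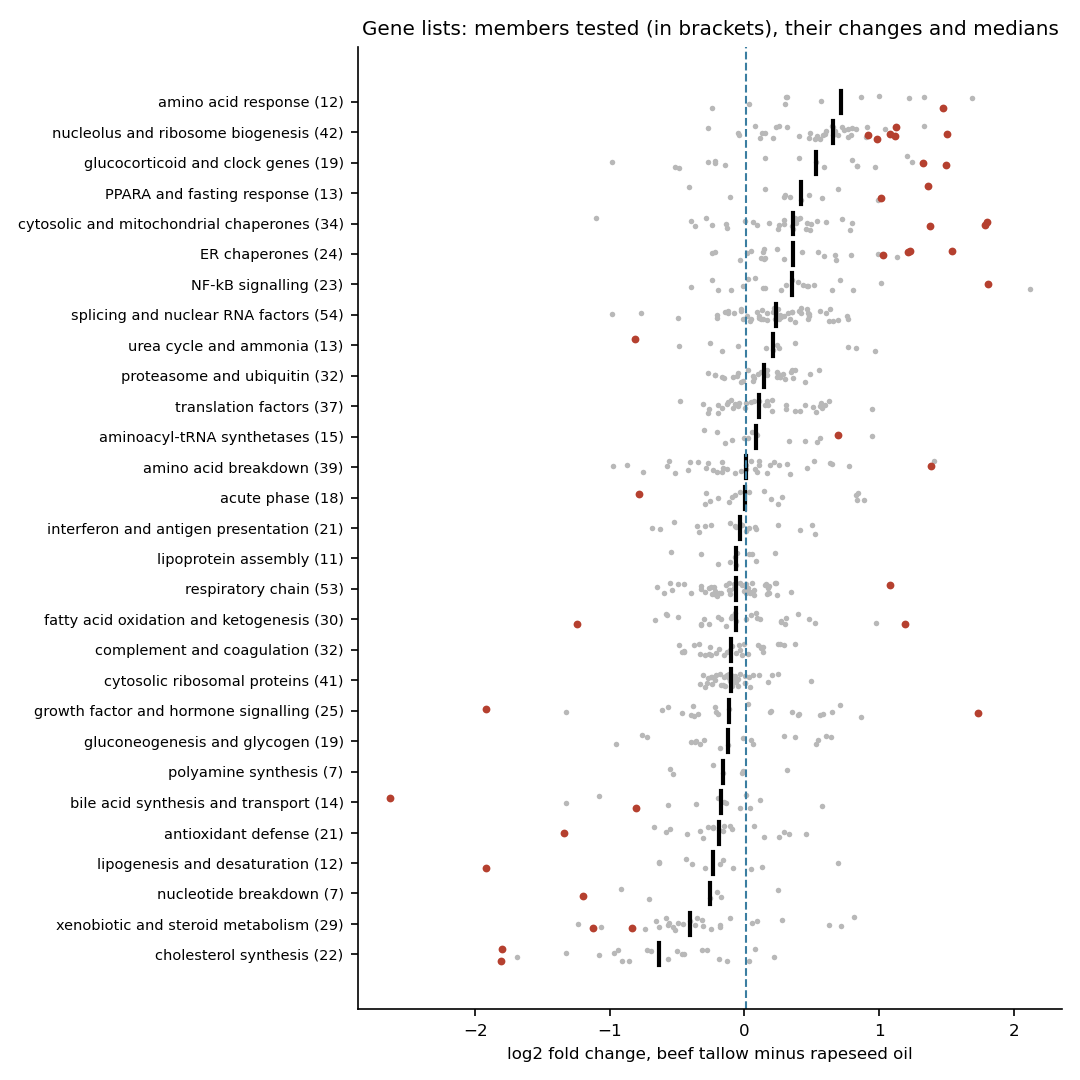
Each row is a gene list with its number of members tested, each grey point a member's log2 fold change, red points the members past an edgeR adjusted p of 0.05, black bars the list medians and the dashed line the median of all genes (0.01). Medians run from -0.63 for cholesterol synthesis to 0.72 for the amino acid response, and most lists straddle 0.

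Markers of liver cell types were read as sums over each list. Hepatocyte markers led in every pig, with summed levels of 165450, 158390, 155690, 199450 and 143490 CPM in group R and 194270, 144370, 88380, 167650 and 133160 CPM in group B, pig 3 of group B being the lowest of all. Of the 10 hepatocyte markers tested, TTR fell and the median was -0.03. Kupffer cell markers summed to 1394, 1474, 1411, 1043 and 842 CPM in group R and 1519, 1202, 2056, 1221 and 1376 CPM in group B, with pig 3 the highest. Of 11 tested 8 were above 0 and the median was 0.32, which was 0.08 without pig 3. CD163 (chromosome 5, 63300200 to 63334497), the macrophage receptor for hemoglobin bound to haptoglobin, was the only one that rose, from 96.9, 121, 112, 128 and 83.9 CPM to 218, 158, 189, 175 and 194 CPM, without overlap (log2FC 0.79 ± 0.17, 0.79 without B3, edgeR adjusted p = 0.0414, 2 leave-one-out fits). The macrophage mannose receptor MRC1 was at 0.55 (edgeR adjusted p = 0.15).

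Among the lists of cell markers, sinusoidal endothelium was the one whose sums did not overlap between the diets. They were 519, 622, 714, 604 and 467 CPM in group R and 747, 735, 730.5, 926 and 748 CPM in group B, with pig 4 of group B the highest. The gap was narrow, with pig 3 of group R at 714 CPM and pig 3 of group B at 730.5 CPM. The marker S1PR1 alone made up 138 and 223 CPM of these sums, so without it these pigs would change places. Of 8 markers tested, 6 were above 0, the median was 0.37, and LYVE1 (chromosome 2, 48937357 to 48954206), a hyaluronan receptor of these cells, rose from 30.4, 43.3, 29.2, 29.3 and 30.9 CPM to 63, 41.6, 57.9, 66.7 and 70.7 CPM. By DESeq2, which tested 12 of these markers, 6 were above 0 and 6 below, with a median of -0.02. For LYVE1, pig 2 of group R lay above pig 2 of group B, the only overlap (log2FC 0.88 ± 0.20, 0.89 without B3, edgeR adjusted p = 0.0495, 2 leave-one-out fits). S1PR1, the sphingosine 1-phosphate receptor of endothelium, had 139 ± 25.4 CPM in group R and 254 ± 77.1 CPM in group B without overlap (edgeR adjusted p = 0.0627), while DNASE1L3 and KDR, also of these cells, were at 0.01 and -0.50. Their part in the other results was not tested. Of 10 stellate and perivascular markers none passed by edgeR (2 at an unadjusted p under 0.05, 1 by DESeq2). They include LRAT, the retinol-storing enzyme, at -0.77, and ACTA2, smooth muscle actin, at 1.42, with the highest pig of group B at 128 CPM and the next at 40.6 CPM. Markers of bile duct cells, lymphocytes and neutrophils had few reads, with none of the bile duct and neutrophil markers tested and only CD2 and JCHAIN tested for lymphocytes. Red blood cell markers summed to 491 to 4492 CPM in group R and 1583 to 2827 CPM in group B.

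**Figure D5:**
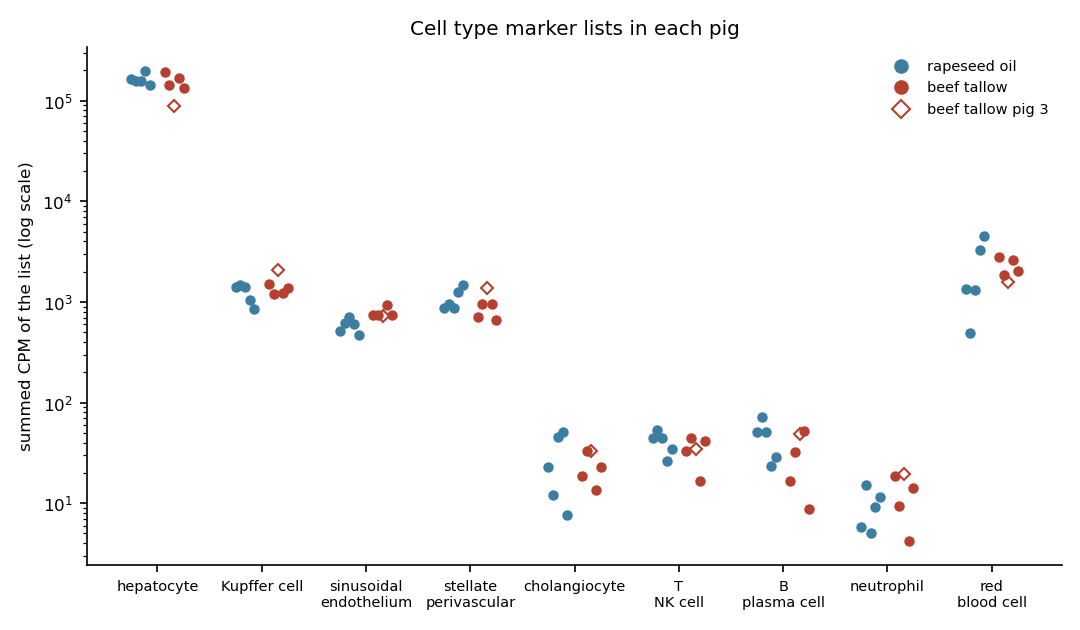
Summed CPM (log axis) of the cell type marker lists in each pig, blue for rapeseed oil, red for beef tallow and an open diamond for beef tallow pig 3. The groups overlap in all lists but sinusoidal endothelium, where the gap rests on S1PR1. Beef tallow pig 3 is the lowest pig for hepatocyte markers and the highest for Kupffer cell markers.

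Sex was unequal between the diets, so its part was checked. With sex as a covariate 59 genes passed, 50 of them among the 70. The interaction of diet and sex passed for 0 of 6318 genes by edgeR, with 250 at an unadjusted p under 0.05 and 1 called by DESeq2, in a test that rests on 2 or 3 pigs of a sex per diet. The shares of reads on genes, with several alignments, outside genes and ambiguous between genes did not pass between the diets, with the smallest two-sided exact permutation p at 0.183 (0.579 after adjustment over the 4 shares) with all 10 pigs. Reads outside genes made up 19.6% ± 3.19 in group R and 23.6% ± 5.10 in group B (SD, n = 5), a difference of 3.94 percentage points. It was 5.87 points without beef tallow pig 3 (two-sided exact permutation p = 0.0317, 0.127 adjusted over the 4 shares) and 2.30 points without beef tallow pig 5 (two-sided exact permutation p = 0.381). Reads with several alignments differed by -2.63 points with all pigs and by -4.95 points without beef tallow pig 3 (two-sided exact permutation p = 0.0873).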

How the data were processed

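The authors extracted liver RNA, made 3′ mRNA libraries, and processed the reads with FastQC, TopHat and HTSeq per the labels, with Sus scrofa 11.1 and Ensembl given as genome and annotation in the study's methods. The deposited values are raw read counts per gene, whole numbers without normalization, for 25880 genes and 5 tallies, and the tallies stayed out of the fits. Reads with several alignments went to no gene, which makes genes with close copies uncertain. Overlapping genes are uncertain too, since the strand setting of the counting is not given in the sources used here. Each library is a separate pig.

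Counts of the 10 libraries were scaled by TMM and filtered by filterByExpr (minimum count 10, minimum total 15), and the diets were compared in edgeR 4.0.16 by its quasi-likelihood test (R 4.3.3, limma 3.58.1), without covariates, with Benjamini-Hochberg adjustment and a threshold of 0.05. DESeq2 1.42.0, voom with library weights, RLE, other filters, sex, a replicate block, thinned counts, robust dispersion and each pig left out were alternatives. The method was tested on simulated data. Symbols were found for 14857 identifiers in the gene table, and positions are those of RefSeq on Sscrofa11.1, matched by symbol. Named are the 12 genes of smallest p in each direction outside the 4 lists set aside, every list member past the threshold, the 2 members of smallest p of each other list, and the 5 most abundant genes; other list members named for their role were chosen after their values were seen. The gene lists and the comparison were chosen with earlier results of these data known. Some genes that this rule names are not reported here. The authors' tests and qPCR were not used here.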

Additional observations from a re-analysis of the deposited data

Results flagged for a closer look

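In groups of 5 pigs, a pig was singled out where its gap to the nearest other pig took up most of the range of its group (Dixon's test at 95%). Of 198 groups of values tested 12 gave such a pig, and chance gives about 1 in 20. Beef tallow pig 3 was singled out 6 times. It was the lowest of its group in ANPEP at 79.8 CPM (104 to 115 CPM in the others), in the lipoprotein receptor SCARB1 at 3.86 CPM (17.4 to 28.1 CPM), in SDHB of the respiratory chain at 51.5 CPM (106 to 129 CPM) and in the immunoproteasome subunit PSMB8 at 4.5 CPM (10.4 to 13.5 CPM). It was the highest in CPS1 at 609.5 CPM (333 to 390 CPM) and in the share of reads with several alignments, at 33.2% (19.3% to 22.8%). In group R that share reached 32.5%.

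Beef tallow pig 4 was the highest of its group in SGK1 at 259 CPM (111 to 127 CPM in the others) and in the summed sinusoidal endothelium markers at 926 CPM (730 to 748 CPM). In group R, pig 2 was the highest in NOLC1 at 58.4 CPM (30.4 to 36.7 CPM) and in LYVE1 at 43.3 CPM (29.2 to 30.9 CPM). Rapeseed oil pig 3 was the lowest of its group in EIF3A at 229.7 CPM (307 to 327 CPM), and pig 4 in the antigen presentation regulator CIITA at 31.3 CPM (45.7 to 51.1 CPM).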

How the results depend on the processing

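With all 10 pigs, the count of 70 genes past the threshold (41 higher, 29 lower) was 188 by DESeq2 (111 and 77, 68 of the 70 among them), 190 with no filter on low counts (110 and 80, 66 among them) and 168 by voom with library weights (108 and 60, 70 among them). It was 64, 66, 59, 56 and 70 with RLE scaling, at least 10 reads in every pig, sex as a covariate, counts thinned to the smallest library and robust dispersion, where the counts higher and lower stayed within 1.5 times. With each pig left out it ran from 9 to 149, with 4 to 93 higher and 5 to 56 lower. The pigs share replicate numbers between the diets, but nothing says that a number marks a pair, and the correlations of same-numbered pigs ran from -0.11 to 0.147. With the replicate number as a block 35 genes passed, 21 higher and 14 lower, 33 of them among the 70. The interaction of diet and sex gave 0 genes by edgeR, 13 with no filter on low counts and 1 by DESeq2. Among the 85 named genes the direction turned only for markers far from the threshold. With each pig left out, CD2 ran from -0.38 to 0.033 (above 0 without beef tallow pig 4), ALAS2 from -0.22 to 0.56 (below 0 without rapeseed oil pigs 1, 2 and 3 and beef tallow pig 3) and AHSP from -0.40 to 0.69 (above 0 without rapeseed oil pigs 4 and 5 and beef tallow pigs 1 and 5). AHSP was also at 0.30 with the replicate block, 0.016 with thinned counts and 1.22 by voom. The cause of these shifts was not tested. At this depth genes under about 10 reads per pig were mostly not tested. The planned description of promoter motifs was not run, since no sequence was at hand.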

Other observations

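Beef tallow pig 3 lay above all 9 other pigs in 1243 of the genes tested (19.7%) and below all of them in 1326 (21%). The first principal component of the 10 pigs held 26.7% of the variance and set this pig at 54.9, with the others from -15.4 to 1.2. Gene lists differed in where this pig stood. It was the highest pig in 22 and the lowest in 1 of 42 nucleolar genes, the highest in 6 and the lowest in 1 of 15 aminoacyl-tRNA synthetases, and the highest in 6 and the lowest in 0 of 11 Kupffer cell markers. In 53 respiratory chain genes it was the highest in 18 and the lowest in 15. It was the lowest in 9 and the highest in 1 of 22 cholesterol synthesis genes, and the lowest in 5 and the highest in 1 of 10 hepatocyte markers. Of 7 genes of nucleotide breakdown it was the lowest in 4 and the highest in 0. It was the lowest in 6 and the highest in 1 of 19 glucocorticoid and clock genes. Against the other 4 pigs of group B its median log2 level was 0.39 higher over the nucleolar genes and -0.60 over the glucocorticoid and clock genes, and what made this library differ was not tested.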
